A study of Mus musculus with 2 samples.

Results

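The CHD, ISWI, INO80 and NuRD remodellers were described in mouse embryonic stem (ES) cells through 42 genes of the 21937 in the deposited table, of which 18759 had reads. The genes were chosen by symbol: Chd1 to Chd9, Ino80 with Ino80b to Ino80e, the Baz, Mta and Mbd genes, and a fixed set of further ATPases and subunits. Srcap, the ATPase of a related complex, is named in the same selection and was not analysed here. Both groups were wild-type ES cells of strain 129Sv-C57Bl/6, grown without feeder cells. The first group was treated with 500 nM ICRF-193, a catalytic inhibitor of topoisomerase II, for 16 h, and the control received the solvent DMSO for the same time. Total RNA was extracted in bulk and sequenced, with 3 libraries in each group. The labels do not say whether replicates came from separate cultures, so p-values measure the spread between these libraries, which may be technical.

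Chromatin remodellers are enzymes that use ATP to slide, evict or exchange nucleosomes. Their catalytic subunits share an SNF2-type ATPase domain and fall into families: CHD proteins carry chromodomains, ISWI proteins space nucleosomes in regular arrays, and INO80, SRCAP and EP400 act in large complexes that exchange histone variants. NuRD joins a CHD ATPase to histone deacetylases and to an MBD protein of the methyl-CpG-binding family, and in ES cells it is known for tuning the expression of pluripotency and lineage genes.

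Of the 42 remodeller genes, 1 rose, 1 fell and 40 did not pass the test after topoisomerase II was inhibited. Chd5, a CHD ATPase best known from the nervous system and testis, rose 1.95-fold, and Ino80, the ATPase of the INO80 complex, fell to 61.6% of its DMSO mean, both values from the authors' deposited table. Within 0.5 of zero on the log2 scale lay 37 of the 42 genes (88.1%) in the authors' deposited table, against 82.3% of genes of similar or higher level. Outside that range, beside Chd5 and Ino80, lay Mbd2 (0.68), Mbd3 (-0.51) and Smarcad1 (-0.51) in the authors' deposited table, none past the test. Each of the 42 genes had at least 287 recovered reads in every library.

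The call in these sentences is an adjusted p under 0.05 in the DESeq test of the authors' deposited table, which called 5.97% of the 18759 genes higher and 1.26% lower. Detection depends on level, and the remodellers are well expressed, so the same shares were taken over the 9128 genes whose mean was at or above that of Mbd5, the lowest of the 42: there the deposited test called 4.15% higher and 1.88% lower. A count of 1 in 42 in each direction is near these shares. At an unadjusted p under 0.05 there were 6 genes (2 higher, 4 lower), or 14.3% of the 42 against 15.8% of the 9128. The median log2 fold change in the authors' deposited table was -0.15 for the 42 genes and -0.13 for the 9128, and 30 of the 42 (71.4%) lay below zero against 65.9% of the 9128. In bulk RNA, fewer cells of a type and less RNA per cell cannot be told apart.

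**Figure D1:**
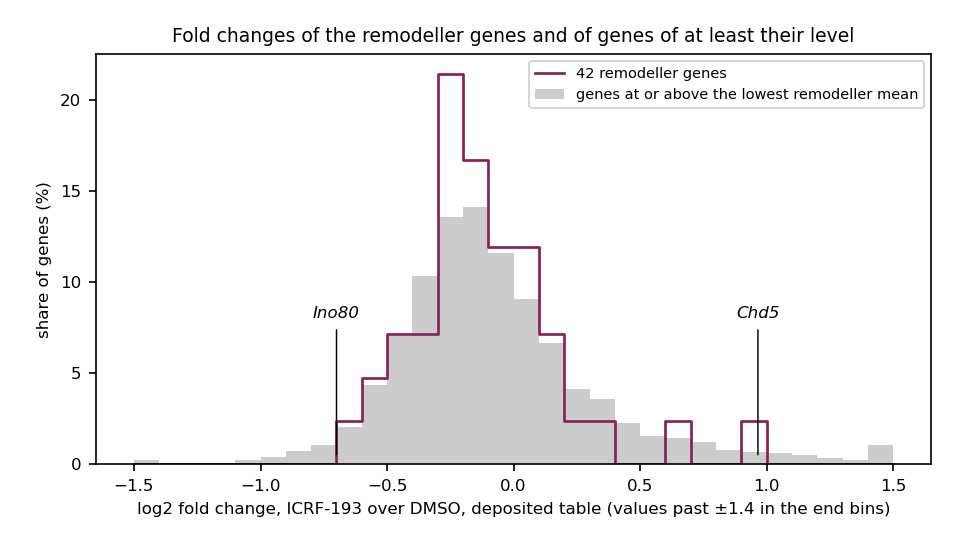
Share of genes (%) in bins of the log2 fold change, ICRF-193 over DMSO, from the deposited table. Grey bars are the 9128 genes at or above the lowest remodeller mean and the line is the 42 remodeller genes. Both have their peak just below zero, with Chd5 (0.97) and Ino80 (-0.70) marked as the genes that passed the test.

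The values of single libraries were worked back from the printed group means and are given in normalised reads, that is reads divided by a size factor of the library. The printed means carry no replicate number, and within each group the letters A, B and C run from the largest size factor to the smallest. The libraries held 26778004 to 42734747 recovered reads, and the 61 genes that could not be resolved, which include no remodeller, are left out of these totals. All 8 ES cell markers were expressed, with summed levels of 121544 to 141657 normalised reads in DMSO and 80486 to 98182 in ICRF-193; all 8 lay below zero in the authors' deposited table, where 1, Zfp42, fell. The 6 fibroblast markers, none at 0, summed to 17875 and 20387 in library A of DMSO and of ICRF-193, and to between 1767 and 3143 in the other 4 libraries. Col1a1 alone made up 12908 and 15180 of the library A sums. Thy1 was lower in A, at 0.624 and 0.832 times the mean of B and C in DMSO and ICRF-193, while all the other fibroblast markers were higher in A. The 6 primitive endoderm markers summed to 4143 and 4182 in the libraries A and to between 902 and 1918 in the other 4, again with none at 0. The 4 neural markers summed to 4238 to 5541 in DMSO and 4662 to 5985 in ICRF-193. They did not move together: Sox1 was at 44.1% of its DMSO mean, with all treated libraries lower, and Map2 at 131%, with all treated libraries higher, and neither passed in the authors' deposited table (adjusted p = 0.0537 and 0.486).

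Library A of each group also stood apart in the remodellers themselves, and the difference followed transcript length. The ratio of library A to the mean of B and C ran from 0.629 for Ino80b to 2.49 for Mbd5 in DMSO, and from 0.727 for Mbd3 to 2.15 for Chd3 in ICRF-193. All 13 genes with a transcript of 8 kb or more were higher in A than in B and C in both groups. Of the 11 genes shorter than 3 kb, 9 were lower in A in DMSO and 9 in ICRF-193. Spearman's rho of this ratio with transcript length, over the 42 genes, was 0.85 for DMSO and 0.83 for ICRF-193; the genes share the same libraries and are not independent. Over the 8218 genes of at least the lowest remodeller mean with a length, rho was 0.68 and 0.65. The part of this library difference, or of the other cell markers, in the results was not tested. For this reason the fold changes the results turn on are also given within libraries A (pair A) and within libraries B and C. The recovered reads were fitted with limma-voom, a linear model of log2 reads weighted by their precision. It was fitted once with the treatment alone and once with a further term for library A against B and C. Both pair A and this term take DMSO-A and ICRF-193-A as alike. The letters follow size factors only, and the labels do not say whether these libraries share a batch, so results of that term rest on this assumption. With the term, the fit called many genes: 20.4% higher and 45.4% lower of the 9067 of at least the lowest remodeller mean. Without the term, leaving out a library in turn changed the sign of the fitted fold change for 15 of the 42 genes. The share of all genes that changed sign in this way is not given here.

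**Figure D2:**
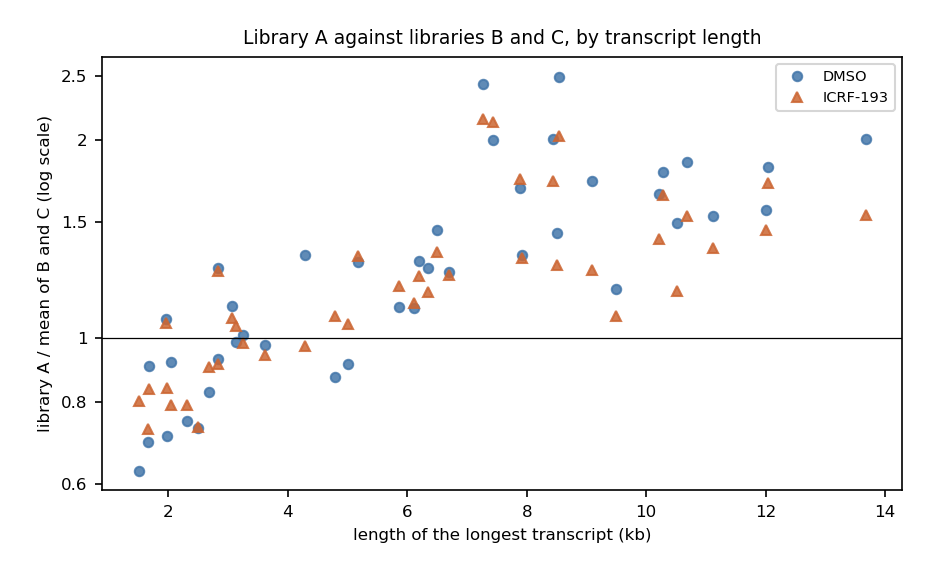
Ratio of library A to the mean of libraries B and C (log scale) against the length of the longest transcript (kb) for the 42 remodeller genes, with circles for DMSO and triangles for ICRF-193. Long genes lie above 1 and most short genes below it, in both groups alike, with extremes at Ino80b (0.629) and Mbd5 (2.49) in DMSO.

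Levels were compared between genes per length. Per kb of the longest transcript in DMSO, Ruvbl2, an AAA+ ATPase shared by INO80, SRCAP and other assemblies, was highest at 8112 ± 1292 normalised reads per kb (mean ± SD, n = 3). Mbd3, the NuRD subunit whose MBD domain binds methylated DNA weakly, followed at 5177 ± 1025, and Chd4, the main ATPase of NuRD in ES cells, at 5004 ± 702 (mean ± SD, n = 3, reads per kb). These neighbours, Mbd3 and Chd4, did not differ beyond their spread. Hells, a SNF2-family ATPase needed for DNA methylation at repeats, was at 3184 ± 207, and the NuRD scaffolds Mta1 and Mta2 at 2830.2 ± 117 and 2770.4 ± 90.6 reads per kb (mean ± SD, n = 3), again within each other's spread. At the other end lay Gatad2b at 189.9 ± 82.1, Chd5 at 62.0 ± 6.49 and Mbd5 at 54.8 ± 31.5 reads per kb (mean ± SD, n = 3). Chd5 was thus the lowest CHD gene per length in both groups, at 121 reads per kb after ICRF-193.

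**Figure D3:**
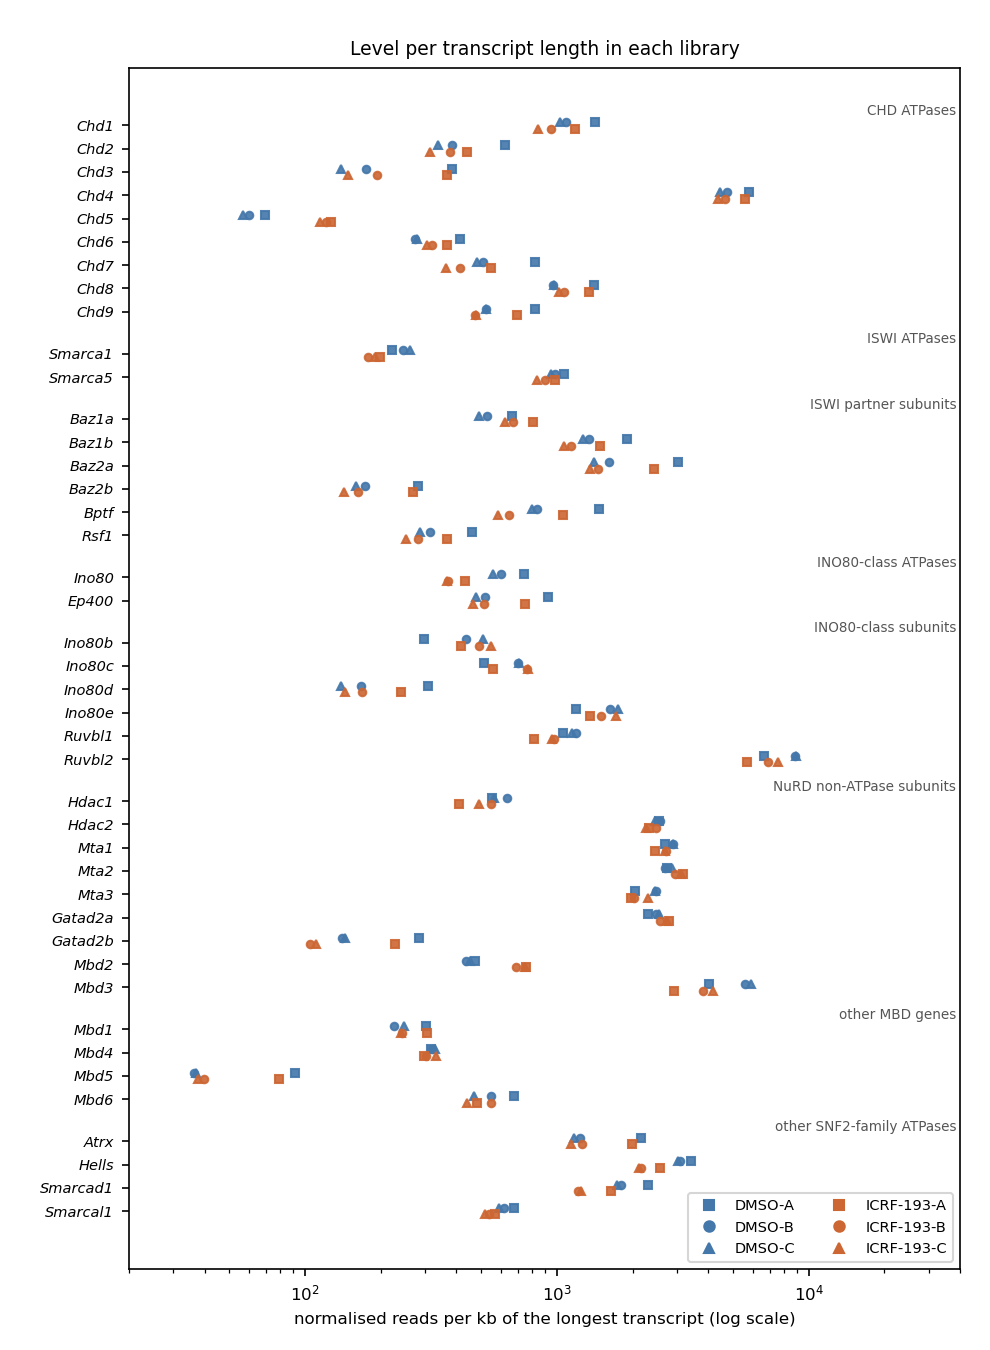
Normalised reads per kb of the longest transcript (log scale) of the 42 remodeller genes in each of the 6 libraries, grouped by role, with blue for DMSO, orange for ICRF-193 and squares, circles and triangles for libraries A, B and C. Ruvbl2 (8112 reads per kb in DMSO) and Chd4 (5004) lie to the right, Chd5 (62.0) and Mbd5 (54.8) to the left.

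Among the 9 CHD ATPases 1 rose and 8 did not pass. With the library A term limma-voom also called Chd1, Chd7 and Chd9 lower. It called 45.4% of the genes of at least the lowest remodeller mean lower. Chd5 was at 657, 568 and 539 normalised reads in libraries A, B and C of DMSO, and at 1209.6, 1149.9 and 1087 in those of ICRF-193; other genes are given in this order. All 3 treated libraries were higher than every control library, by a wide gap. The log2 fold change in the authors' deposited table was 0.97 (adjusted p = 0.00392). It was 0.88 in pair A and 1.01 in libraries B and C. A limma-voom fit on the recovered reads gave 0.96 ± 0.12 (SE, adjusted p = 0.006). The adjusted p of that limma-voom fit stayed between 0.00579 and 0.0439 when each library was left out in turn. GENCODE M21 places Gm13645 opposite Chd5 with 101 shared exonic bases. The sources used here do not give the kit's strand, so reads of such pairs cannot be told apart. Baz2b, Chd8, Chd9, Gatad2b, Ino80b, Ino80d, Mbd4 and Rsf1 also share exonic bases with a gene on the opposite strand. On the same strand, Chd2 shares 634 exonic bases with 1810026B05Rik (mean of 443 normalised reads), Baz1a 346 with Gm20403 and Smarca5 281 with Gm45872.

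The sequence upstream of the start is shown for Chd5 and for Chd4, since these genes encode alternative ATPases of NuRD and moved differently. Each is the 250 bases before a RefSeq start on GRCm38.p6, plus strand, with the GC box (GGGCGG on either strand) in capitals: chr4:152338401-152338650 for Chd5 and chr6:125095731-125095980 for Chd4.
Chd5: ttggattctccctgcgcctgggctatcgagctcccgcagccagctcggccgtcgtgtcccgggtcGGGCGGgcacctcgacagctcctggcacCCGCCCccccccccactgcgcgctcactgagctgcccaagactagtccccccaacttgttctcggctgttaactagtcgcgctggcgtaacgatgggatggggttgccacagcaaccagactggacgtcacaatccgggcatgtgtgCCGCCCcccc
Chd4: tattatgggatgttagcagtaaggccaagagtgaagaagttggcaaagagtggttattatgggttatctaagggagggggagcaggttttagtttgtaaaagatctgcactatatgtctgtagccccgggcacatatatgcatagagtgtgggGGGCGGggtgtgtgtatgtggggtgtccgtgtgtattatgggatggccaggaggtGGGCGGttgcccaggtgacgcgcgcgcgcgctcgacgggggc
The Chd5 window held 3 GC boxes, 21 CG dinucleotides and 1 match to the p53 half-site, and the Chd4 window held 2, 12 and 0. Over 32851 RefSeq windows of the same length, 32.7% held a GC box and 7.13% a p53 half-site, and the median number of CG dinucleotides was 6. Among 30 remodeller genes with a window, 25 held a GC box, 16 a CCAAT box (33.8% of all windows) and 5 a p53 half-site. All RefSeq windows were not matched to the remodellers for level or CG content, and the median number of CG dinucleotides in the 30 was 17.5. Only the first listed start of each gene was searched, while Chd4 and Chd5 each had 2 listed. A match is a description of the letters only.

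Chd4 itself did not pass. It was at 38830.3, 31809 and 29906 normalised reads in DMSO and at 37558, 31134 and 29231 in ICRF-193, so the groups overlapped. It ranked 62 among all genes by mean, and the authors' deposited table gives a log2 fold change of -0.04 (adjusted p = 1). Chd3, another NuRD ATPase, was at 2777, 1276 and 1013 in DMSO and 2663, 1405 and 1075 in ICRF-193, where the spread between library A and the others exceeded any difference between groups.

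Chd7, which binds enhancers and is mutated in CHARGE syndrome, had the lowest fold change of the family. It was at 8366, 5191 and 4938 normalised reads in DMSO and at 5598, 4219 and 3713 in ICRF-193, where the highest treated library exceeded the lower 2 control libraries. The authors' deposited table gives -0.45 (adjusted p = 0.541). Pair A gave -0.58 and libraries B and C gave -0.35 on the log2 scale, and with the library A term limma-voom called Chd7 lower (adjusted p = 2.18e-04). Chd1, an ATPase that travels with elongating RNA polymerase II, was at -0.25, Chd2 at -0.25 and Chd9 at -0.17, and Chd6 and Chd8 at 0.04 and 0.04, on the log2 scale of the authors' deposited table, none past that test. Chd8, a regulator tied to Wnt signalling, had 9493 ± 2109 to 9749 ± 1512 normalised reads (mean ± SD, n = 3; DMSO to ICRF-193).

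Neither ISWI ATPase passed the deposited test or limma-voom without the library A term. With that term limma-voom called both lower (adjusted p = 0.0028 for Smarca1 and 0.0279 for Smarca5). It called 45.4% of the genes of at least the lowest remodeller mean lower. Smarca1 (SNF2L) was at 1065, 1182 and 1259 normalised reads in DMSO and at 956, 856 and 911 in ICRF-193. All treated libraries were lower than all control libraries, yet the log2 fold change in the authors' deposited table was -0.36 (adjusted p = 0.544). It was -0.16 in pair A and -0.47 in libraries B and C. Smarca5 (SNF2H), the ISWI ATPase of most dividing cells, was higher, at 6562, 6001 and 5803 in DMSO and 6008, 5517 and 5119.5 in ICRF-193. Its groups overlapped, with a deposited log2 fold change of -0.14 (adjusted p = 0.902 in the authors' deposited table).

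The 6 ISWI partner subunits gave 0 calls in the deposited DESeq test and 0 at an unadjusted p under 0.05; limma-voom without the library A term also called 0. With that term limma-voom called 5 of the 6: Baz1a higher, and Baz1b, Baz2a, Bptf and Rsf1 lower. The same fit called 20.4% higher and 45.4% lower of the genes of at least the lowest remodeller mean. Baz1a (ACF1), the partner of Smarca5 in the nucleosome-spacing complexes ACF and CHRAC, was the highest in fold: 4123, 3262 and 3030.2 normalised reads in DMSO against 4975, 4134 and 3873 in ICRF-193. Treated libraries A and B exceeded all controls and treated library C lay under DMSO-A, so the groups overlapped; the authors' deposited table gives 0.32 (adjusted p = 0.632), with 0.27 in pair A and 0.35 in libraries B and C. Bptf, the largest subunit of NURF and a reader of histone H3 lysine methylation, was at 17792, 10013 and 9575 in DMSO and 12753, 7775 and 7059 in ICRF-193. The groups of Bptf overlapped, and the authors' deposited table gives -0.44 (adjusted p = 0.7). For Bptf, pair A gave -0.48 and libraries B and C gave -0.40 on the log2 scale. Single libraries decided its size in limma-voom without the library A term, from -0.70 without ICRF-193-A to -0.14 without DMSO-A. Baz2a (TIP5), which silences ribosomal DNA in the NoRC complex, had the highest mean of these subunits, with 25537, 13595 and 11853 in DMSO and 20554, 12284 and 11429.7 in ICRF-193. In DMSO its library A was 2.01 times the mean of B and C, a wider gap than that between the groups. Baz1b, Baz2b and Rsf1 lay at -0.29, -0.10 and -0.24 in the authors' deposited table.

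Of the pair of INO80-class ATPases measured, Ino80 fell and Ep400 did not pass. Ino80 was at 4715, 3829 and 3546 normalised reads in DMSO and at 2756, 2359 and 2329 in ICRF-193. The highest treated library lay under the lowest control library. The log2 fold change in the authors' deposited table was -0.70 (adjusted p = 0.0452), close to the threshold. It was -0.77 in pair A and -0.65 in libraries B and C, and limma-voom gave -0.70 ± 0.14 (SE, adjusted p = 0.023). In the limma-voom fit the call was lost without DMSO-B, without ICRF-193-B or without ICRF-193-C, with adjusted p up to 0.110. Ep400, the ATPase of the TIP60-EP400 complex, was at 9889, 5554 and 5128 in DMSO and at 7999, 5486 and 4967 in ICRF-193. The groups of Ep400 overlapped, and the authors' deposited table gives -0.16 (adjusted p = 0.941).

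The 250 bases before the RefSeq start of Ino80 are shown because it is the gene that fell. They lie at chr2:119477688-119477937 on the minus strand of GRCm38.p6, written 5′ to 3′, with GC boxes (GGGCGG on either strand) and CCAAT boxes (CCAAT on either strand) in capitals.
Ino80: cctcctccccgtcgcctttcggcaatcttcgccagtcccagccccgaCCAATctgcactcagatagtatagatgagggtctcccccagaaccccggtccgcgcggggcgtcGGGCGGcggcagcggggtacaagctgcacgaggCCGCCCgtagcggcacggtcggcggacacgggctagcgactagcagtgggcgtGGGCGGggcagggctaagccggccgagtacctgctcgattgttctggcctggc
The window held 3 GC boxes, 1 CCAAT box, 28 CG dinucleotides and 0 matches to the p53 half-site. Chd5, which rose, held the same number of GC boxes.

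The other subunits of the INO80 class did not follow Ino80 past the test: 0 of 6 were called by the deposited DESeq test, 0 at an unadjusted p under 0.05 and 0 by limma-voom without the library A term. With the term limma-voom called Ruvbl1 and Ruvbl2 lower (adjusted p = 0.00083 and 0.000707), where it called 45.4% of the genes of at least the lowest remodeller mean lower. Ino80b was at 447, 659 and 764 normalised reads in DMSO and at 624, 738 and 821 in ICRF-193, overlapping, with 0.22 in the authors' deposited table (adjusted p = 0.741). Ruvbl1, the partner of Ruvbl2 in a hexameric ring, was at 1781, 1990.0 and 1933 in DMSO and 1358, 1631 and 1611 in ICRF-193. All treated libraries of Ruvbl1 were lower, at a deposited log2 fold change of -0.31 (adjusted p = 0.624 in the authors' deposited table). Ruvbl2 was at 15308, 20409 and 20549 in DMSO and 13217, 15903 and 17509 in ICRF-193, overlapping through DMSO-A. It shares 310 exonic bases with Gys1 on the opposite strand, so its reads are uncertain. Ino80c, Ino80d and Ino80e lay at 0.12, -0.16 and 0.00 in the authors' deposited table; Ino80e shares 951 exonic bases with Doc2a on the opposite strand, which was itself at a mean of 1127 normalised reads.

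Of the 9 NuRD subunits other than the ATPases, the deposited DESeq test called 0, with 2 at an unadjusted p under 0.05, Mbd2 higher and Mbd3 lower, while limma-voom called 1. With the library A term limma-voom called 3 higher (Gatad2a, Mbd2 and Mta2) and 4 lower (Gatad2b, Hdac1, Mbd3 and Mta1). Among the genes of at least the lowest remodeller mean that fit called 20.4% higher and 45.4% lower. Limma-voom without the term called 6.21% of them higher and 8.44% lower. At an unadjusted p under 0.05 in the deposited test were 15.8% of the genes of that level. Mbd2 and Mbd3 encode alternative MBD subunits of NuRD, of which Mbd2 binds methylated CpG strongly. Mbd2 was at 926, 853 and 883 normalised reads in DMSO and at 1477, 1342 and 1460.0 in ICRF-193. The lowest treated library lay well above the highest control library. The log2 fold change in the authors' deposited table was 0.68 (adjusted p = 0.0726), with 0.67 in pair A and 0.69 in libraries B and C. In limma-voom it was 0.68 ± 0.10 (SE, adjusted p = 0.00918), and that call was lost without DMSO-B, without ICRF-193-B or without ICRF-193-C (adjusted p up to 0.0605). Mbd3 was at 6658, 9326 and 9826 in DMSO and at 4835, 6341 and 6966 in ICRF-193. The groups of Mbd3 overlapped through DMSO-A, with -0.46 in pair A and -0.53 in libraries B and C; the authors' deposited table gives -0.51 (adjusted p = 0.267).

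None of the deacetylases and scaffolds of NuRD passed the deposited test. Gatad2a, a bridge between the MBD protein and the ATPase, had the highest mean of these subunits, with 11509.9, 12418 and 12782 normalised reads in DMSO and 13919.5, 12843 and 13688 in ICRF-193. All treated libraries of Gatad2a were higher, by a narrow gap, and the authors' deposited table gives 0.14 (adjusted p = 0.9). Its relative Gatad2b was at -0.36 in the authors' deposited table. Hdac1 and Hdac2, the catalytic deacetylases, lay at -0.28 and -0.10, and Mta1, Mta2 and Mta3 at -0.11, 0.15 and -0.15 in the authors' deposited table.

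Since related subunits take the same place in a complex, their ratio was also taken within each library, where scaling between libraries cancels. It was computed for 8 pairs and tested by a two-sided exact permutation test of the log2 ratio, 3 against 3 libraries, for which the smallest possible p is 0.1; no pair can pass. Mbd2 reads were 13.9%, 9.15% and 8.98% of Mbd3 reads in DMSO and 30.5%, 21.2% and 21.0% in ICRF-193. The ratio was higher in all 3 treated libraries, by 1.19 on the log2 scale (exact permutation p = 0.1, adjusted p = 0.267 over the 8 pairs). Chd5 reads were 1.76% ± 0.0594 of Chd4 reads in DMSO (mean ± SD, n = 3) and 3.22%, 3.69% and 3.72% in the ICRF-193 libraries. This ratio was also higher in all 3, by 1.01 on the log2 scale (exact permutation p = 0.1, adjusted p = 0.267). Mta1 reads as a share of Mta2 reads were 88.5%, 96.7% and 91.3% in DMSO and 70.3%, 82.7% and 78.1% in ICRF-193, lower in all 3 treated libraries (exact permutation p = 0.1, adjusted p = 0.267). The pairs Chd3 and Chd4, Hdac1 and Hdac2, Ruvbl1 and Ruvbl2, Smarca1 and Smarca5, and Gatad2b and Gatad2a overlapped between the groups, with exact permutation p from 0.2 to 0.8. These are ratios of reads, not of molecules, since transcript lengths differ.

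**Figure D4:**
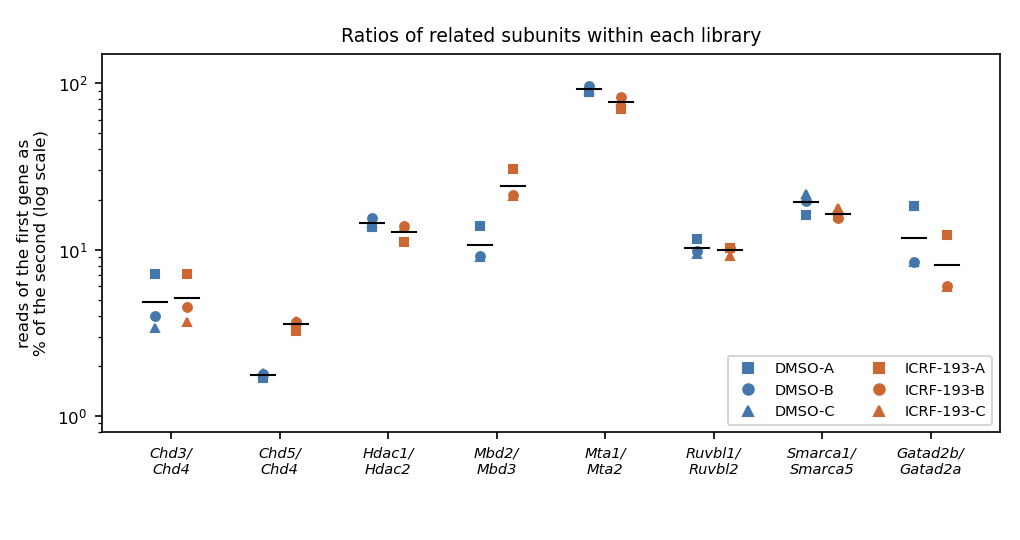
Normalised reads of the first gene as a percentage of the second (log scale) within each of the 6 libraries for 8 pairs of related subunits. Points are libraries, bars are group means. Mbd2/Mbd3 and Chd5/Chd4 are higher in all 3 ICRF-193 libraries, Mta1/Mta2 is lower in all 3, and the other 5 pairs overlap.

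The other MBD genes, Mbd1, Mbd4, Mbd5 and Mbd6, gave 0 calls in the deposited DESeq test, 0 at an unadjusted p under 0.05 and 0 in limma-voom. Mbd6, which recruits a histone deubiquitinase complex, had the highest mean, with 2907, 2345 and 2011 normalised reads in DMSO and 2061, 2351 and 1895 in ICRF-193, and overlapped. Mbd1 was at 857, 639 and 704 in DMSO and 869, 688 and 686 in ICRF-193, with 0.03 in the authors' deposited table. Mbd4, a DNA glycosylase that repairs mismatches at CpG sites, was at 1159 ± 21.9 and 1122 ± 67.4 normalised reads (mean ± SD, n = 3; DMSO and ICRF-193). Mbd4 and Mbd5 lay at -0.05 and -0.07 in the authors' deposited table.

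The 4 further SNF2-family ATPases all lay below zero, with 0 calls in the deposited DESeq test and 2 at an unadjusted p under 0.05, Hells and Smarcad1. Limma-voom called Hells lower, and with the library A term also Smarcad1 and Smarcal1. Of the genes of at least the lowest remodeller mean it called 8.44% lower without the term and 45.4% with it. Hells (LSH) was at 20077, 18160.4 and 17822 normalised reads in DMSO and at 15017, 12645 and 12431 in ICRF-193. The groups did not overlap, and the authors' deposited table gives -0.48 (adjusted p = 0.266), with -0.42 in pair A and -0.52 in libraries B and C. In limma-voom Hells was at -0.49 ± 0.11 (SE, adjusted p = 0.0276), a call that held without DMSO-A or ICRF-193-A and was lost without any of the other 4 libraries (adjusted p up to 0.129). Smarcad1, which acts at repeats and at DNA breaks, was at 11918, 9338 and 8940.3 in DMSO and 8477, 6271 and 6458 in ICRF-193. All its treated libraries were lower; the authors' deposited table gives -0.51 (adjusted p = 0.211), with -0.49 in pair A and -0.52 in libraries B and C. Smarcal1, which anneals DNA at stalled forks, also had all treated libraries lower, at -0.21 in the authors' deposited table, while Atrx, which deposits histone H3.3 at repeats with Daxx, was at -0.06.

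Counted over the 42 genes, all 3 ICRF-193 libraries lay above all DMSO libraries in 4 genes (Chd5, Mbd2, Mta2 and Gatad2a) and below them in 7 (Smarca1, Ino80, Ruvbl1, Hdac1, Hells, Smarcad1 and Smarcal1). Over 18698 resolved genes these shares were 17.8% and 15.4%, and over those of at least the lowest remodeller mean 11.9% and 25%. The 4 and 7 of 42 do not exceed the latter shares. The sign of the fold change was the same in pair A and in libraries B and C for 36 of the 42. The share of all genes with the same sign in both is not given here. In a limma-voom fit that let the treatment effect differ with library A, 5 of the 42 were at an unadjusted p under 0.05 for that term, against 7.72% of 14966 genes. No gene passed adjustment there, and the lowest adjusted p of a remodeller in limma-voom was 0.426.

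**Figure D5:**
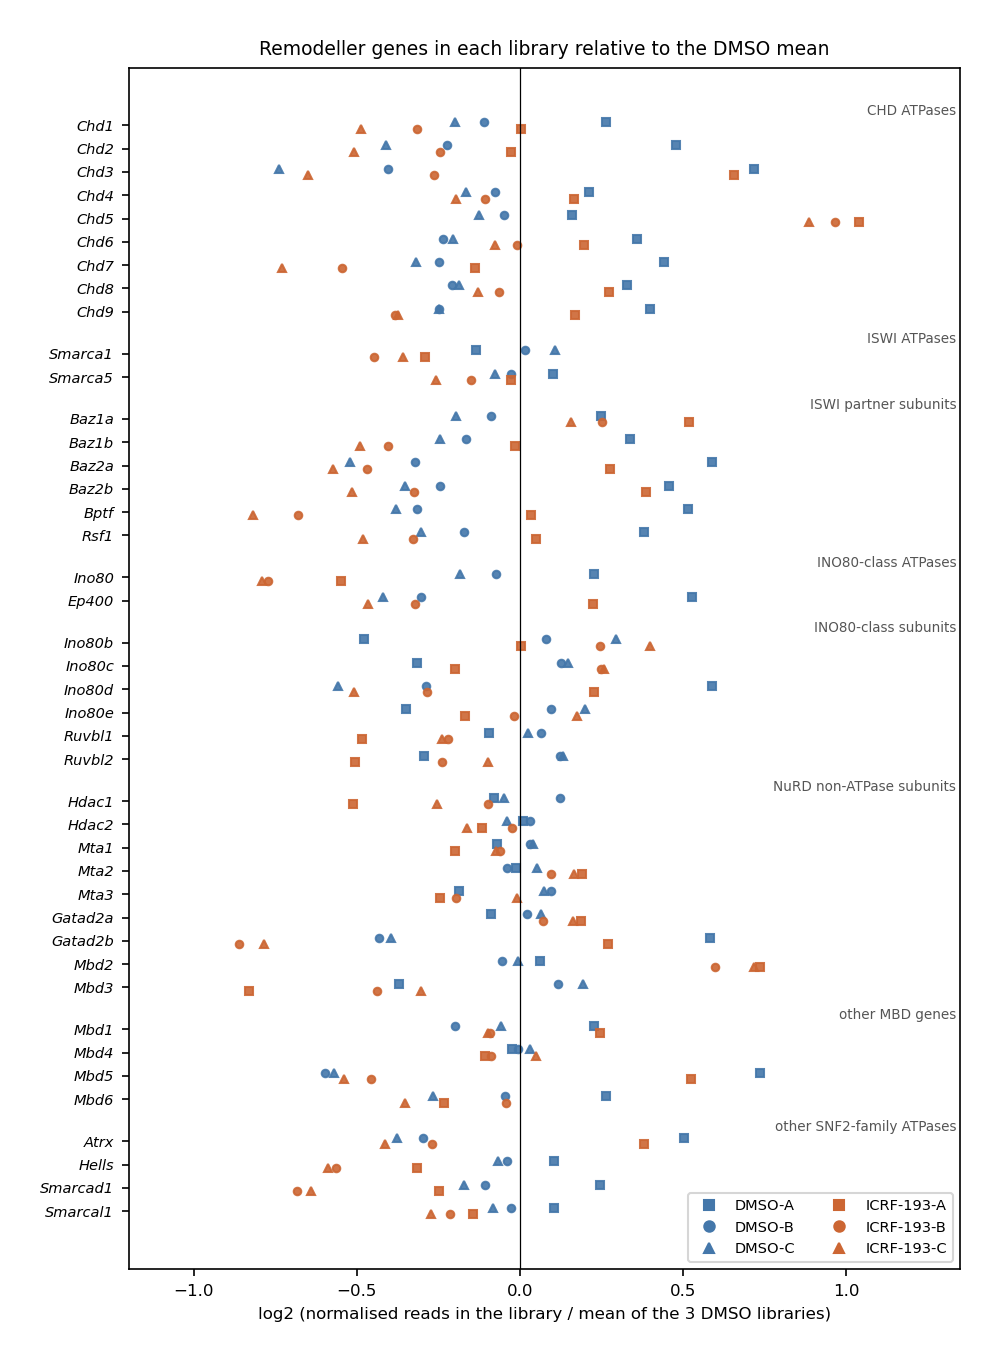
Log2 of the normalised reads in each of the 6 libraries over the mean of the 3 DMSO libraries, for the 42 remodeller genes by role, with blue for DMSO, orange for ICRF-193 and squares, circles and triangles for libraries A, B and C. Chd5 and Mbd2 lie to the right of all controls and Ino80, Hells and Smarcad1 to the left. Squares stand apart from circles and triangles in many of the other rows.

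How many remodellers passed depended on how library A was treated. On the recovered reads limma-voom called 2 of the 42 higher, Chd5 and Mbd2, and 2 lower, Ino80 and Hells, where it called 9.77% and 5.95% of 14966 genes, and 6.21% and 8.44% of the 9067 among them of at least the lowest remodeller mean. With the library A term limma-voom called 5 higher and 19 lower, against 27.1% and 32.6% of all genes and 20.4% and 45.4% of those 9067. Read against the genes of like level, the 19 of 42 are not an excess. The 5 were Baz1a, Chd5, Gatad2a, Mbd2 and Mta2. Among the 19 were Bptf (-0.43 ± 0.05, SE, adjusted p = 4.05e-05), Smarcad1 (-0.51 ± 0.05, SE, adjusted p = 5.77e-06), Mbd3 (-0.51 ± 0.05, SE, adjusted p = 1.68e-05) and Chd7 (-0.44 ± 0.07, SE, adjusted p = 2.18e-04) in limma-voom. Scaling that fit by total reads, an alternative added after the values were seen, shifted the calls to 8 higher and 11 lower, against 35.4% and 20.7% of all genes and 29.9% and 29% of the 9067. Without both libraries A, limma-voom called 4 higher and 14 lower, against 24.1% and 29.8% of 14411 genes and 19.1% and 40.8% of the 9067. In the fit without the term, total-read scaling shifted the median over all genes by 0.12 on the log2 scale. It turned the sign of 8 of the 42 genes, so that 22 rather than 30 lay below zero. The share of all genes whose sign turned is not given here. Chd5, Mbd2, Ino80 and Hells kept their call and direction in the fits with all 6 libraries under either scaling.

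The known partners of these ATPases that the symbol rule did not take were examined as 6 lists of 55 genes. The authors' deposited table calls 0 of them higher and 2 lower, Sall1 and Cdca7l. Of the 9128 genes of at least the lowest remodeller mean it calls 4.15% higher and 1.88% lower. At an unadjusted p under 0.05 in that table, 1 partner was higher and 6 were lower, against 15.8% of the 9128 in either direction. Sall1, a zinc-finger protein that recruits NuRD, was at 11726, 8541 and 8113 normalised reads in DMSO and 6184, 5160.4 and 4952 in ICRF-193; it fell, with -0.80 in the authors' deposited table (adjusted p = 0.0133), -0.92 in pair A and -0.72 in libraries B and C. Cdca7l, a relative of the Hells activator Cdca7, was at 1692, 1843 and 1965 in DMSO and 872, 1045 and 1128 in ICRF-193 and fell, with -0.85 in the authors' deposited table (adjusted p = 0.0119), -0.96 in pair A and -0.81 in libraries B and C. For both genes all treated libraries were lower. Below zero lay 48 of the 55 partners (87.3%), with a median of -0.30 in the authors' deposited table, against 65.9% and -0.13 for the genes of at least the lowest remodeller mean. All treated libraries lay below all controls in 26 partners and above them in 3, against 25% and 11.9% of those genes. Limma-voom without the library A term called 9 partners lower and 1 higher, against 8.44% and 6.21% of those genes. With the library A term limma-voom called 39 of the 55 lower and 5 higher, where it called 45.4% and 20.4% of the genes of at least the lowest remodeller mean.

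By complex, the medians of the partner lists ran from -0.40 to -0.15 in the authors' deposited table, and their differences were not tested. In the authors' deposited table the 8 INO80 partners had a median of -0.33, between Actl6a (-0.45) and Nfrkb (0.04). The 17 SRCAP and TIP60-EP400 partners had a median of -0.30 there, between Actr6 (-0.51) and Trrap (0.23), a scaffold of histone acetyltransferase complexes. The 8 NuRD partners had a median of -0.38 in the authors' deposited table, from Sall1 up to Zmynd8 (0.13). The 4 ISWI partners had a median of -0.27, with Chrac1 lowest (-0.53) and Pole3 highest (-0.05), in the authors' deposited table. The 8 partners of CHD, ATRX, HELLS and methyl-CpG proteins had a median of -0.40, from Cdca7l to Zbtb4 (0.61), in the authors' deposited table. The 10 further SNF2-family ATPases outside the rule had a median of -0.15, between Rad54b (-0.52) and Ercc6 (0.07), in the authors' deposited table.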

How the data were processed

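RNA of mouse ES cells was sequenced in 2 groups of 3 libraries. Per the submitters' processing notes, reads were handled with TopHat, HTSeq and DESeq on mm9; versions, annotation and strand are not given in the sources used here. In the deposited table each group has a signal, which is the authors' mean of reads divided by library size factors. The deposited fold change is a ratio of these means, given also as log2, and each gene has the authors' p-value, with and without Benjamini-Hochberg adjustment. The ratio was checked against the means (largest relative difference 1.15e-14).

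Whole reads per library were worked back from the 15 printed digits of each mean, as all combinations of 3 whole numbers that fit. Means up to 5000 were searched in full and means up to 60000 within bounds on the ratios of libraries. A gene was kept with a single solution in both groups (18435 genes) or a posterior of at least 0.99 (263, among them Baz2a, Chd4 and Ruvbl2). Recomputed size factors differed by at most 0.0515%. The recovery and the fits were tested on simulated data. Genes that reached 10 reads in 3 or more libraries entered limma-voom fits (R 4.3.3, limma 3.58.1), scaled by the size factors of the authors and adjusted by Benjamini-Hochberg over all genes fitted. Lengths are those of the longest GENCODE M21 transcript; promoter windows are from RefSeq on GRCm38.p6 and were matched by symbol. Recovered reads numbered 26778004 to 42734747 per library, which is not the sequencing depth.

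The members and lists were chosen with earlier results of these data known. Values per library are given for members past an adjusted p of 0.05 in the deposited test or in limma-voom with the group term, and in each role for the largest rise, the largest fall and the highest mean; a partner is named where it passed or was the largest rise or fall of its list. Chd3, the read ratios of all pairs with their permutation tests, and the library-term calls of single genes were described in addition, outside the plan. The pairs had been listed beforehand only for a comparison of proteins. The library term was planned as an alternative fit, and its scaling by total reads was not. Proteins were not analysed here.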

Additional observations from a re-analysis of the deposited data

How the results depend on the processing

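The deposited test called 1 remodeller higher and 1 lower. Limma-voom on the recovered reads called 2 and 2, and the same numbers when scaled by total reads, scaled by TMM, without a filter beyond 1 read, or with at least 100 reads in 3 libraries. With the term for libraries A it called 5 and 19, the same fit scaled by total reads 8 and 11, and without both libraries A 4 and 14. Leaving out each library in turn gave 1 to 2 higher and 0 to 4 lower; the 0 came in limma-voom without DMSO-B, without ICRF-193-B and without ICRF-193-C. At an adjusted p under 0.1 the deposited DESeq test called 2 higher, and under 0.01 it called 0 lower, while 4 were lower at an unadjusted p under 0.05. The cause was not tested. Shares over all genes are not given here for the other scalings and filters, the libraries left out in turn, or the thresholds of 0.1 and 0.01. These counts are therefore not read as particular to the remodellers. The median log2 fold change of -0.15 stayed below zero, from -0.25 without DMSO-C to -0.01 with total read scaling. Chd5 kept its call and direction in each of these limma-voom fits. Ino80 kept its direction in all of them and its call except in the 3 named. Leaving out Hdac1, Hdac2, Ruvbl1 and Ruvbl2 could not change either count of the deposited test, since it called none of them. No paired analysis was possible because the recovered libraries carry no replicate number.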

Other observations

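Some remodellers had unlike fold changes in pair A and in libraries B and C. Chd2 was at -0.51 in pair A and -0.06 in libraries B and C on the log2 scale, Mbd6 at -0.50 and -0.04, Ep400 at -0.31 and -0.03, Ino80d at -0.36 and 0.02, and Chd6 at -0.16 and 0.18. These are the 5 genes at an unadjusted p under 0.05 for that difference in limma-voom, where 0 genes passed adjustment. With only 1 library A in a group, such differences rest on single libraries.

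The fold change of the remodellers showed little relation to gene length. Across the 42 genes Spearman's rho between the log2 fold change in the authors' deposited table and the genomic length was -0.14, and with the transcript length -0.09. Over 8184 genes of at least the lowest remodeller mean it was 0.08 with the genomic length. The genes share libraries and are not independent.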
